A study of Mus musculus with 27 samples.

Results

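Axon guidance genes code for the secreted and membrane-bound ligands, and their receptors on growing axons and dendrites, that steer the wiring of the retina. They were taken from the deposited table by gene symbol, among rows that carry a Gene ID. The symbols were those of semaphorins, plexins, neuropilins, ephrins, Eph receptors, Slits, Robos, netrins, Dcc and the Unc5 receptors. A measured value was used only for a repeated symbol (Efna5), where the row with the highest mean was taken. The members were chosen with earlier results of these data known. The rule gave 71 symbols of the 38168 features in the table. Of these, 69 code for ligands or receptors, and the other 2 (Plxna4os1 and Plxna4os2) are noncoding antisense transcripts of the plexin A4 locus that the rule takes because their symbols begin in the same way. By role there were 20 semaphorins, 11 plexins and neuropilins, 5 ephrin-A ligands, 9 EphA receptors, 3 ephrin-B ligands, 5 EphB receptors, 7 Slits and Robos and 9 netrins and netrin receptors. In all, 69 of the 71 reached at least 1 CPM (the reads of a gene as a share of the reads of the library, scaled to 1000000) in at least 3 libraries and were tested. The remaining 2, Plxnb3 and Ntn5, did not: Plxnb3 had at most 6 reads in any library, and Ntn5 had at most 1 read in each library up to P6 and 13 reads in its highest, at P60.

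The series followed normal development of the whole retina in wild type C57BL/6J mice by RNA-seq, to chart isoforms of a thyroid hormone receptor gene. Retinas were collected at embryonic day 14 (E14, 3 libraries), E17 (3), postnatal day 1 (P1, 4), P6 (3), P15 (4), P28 (4) and P60 (6), 27 libraries in all, from mice on a light and dark cycle that were sampled in the light phase. No library was treated or mutant, so each age was compared with another age. The study's methods give pools of embryos or mice for most libraries and single mice for 4 of the 6 at P60, without saying which, while the labels state n = 3 per library. Embryos and P1 pups were of mixed sexes and later mice were males, so sex differs between the younger and the older ages and cannot be told apart from age. The reads counted to features, recovered from the CPM values, came to 7077781 to 11332323 per library (median 7969873), 1 read was worth 0.0882 to 0.141 CPM, and 3 reads, the most that a count of 0 allows, came to 0.265 to 0.424 CPM; these limits cover counting error only. P-values measure the spread between libraries of an age, and values after ± are standard deviations (SD) over the libraries of an age. At P60, replicates 1, 2 and 6 had higher mean correlations to P28 than to the rest of their own age, over all features tested, and counts, orders and changes that rest on P60 are given with and without them. Other values at P60 are over all 6 libraries. For the 66 genes with a mean of at least 1 CPM there, leaving out replicates 1, 2 and 6 gave 0.569 (Sema3c) to 1.3 times (Plxna4os1) the mean of all 6. Leaving out replicates 3, 4 and 5 gave 0.703 (Plxna4os1) to 1.43 times (Sema3c).

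In the retina, ganglion cell axons leave through the optic disc, cross or turn aside at the optic chiasm and map onto visual centres in order. Netrin-1 acting through Dcc and repulsion by Slits acting through Robos are known to guide them within the eye, ephrin-B ligands and EphB receptors act at the chiasm and along the dorsal to ventral axis, and ephrin-A ligands and EphA receptors act along the nasal to temporal axis. Semaphorins acting through plexins and neuropilins are known to keep amacrine and ganglion cell dendrites in their layers. The labelled tissue carried markers of the expected cells: the 5 rod markers summed to 16.5 to 23.2 CPM at E14 and 23913 to 29374 CPM at P60, the 5 amacrine markers to 143 to 166 and 516 to 532 CPM, and the 7 ganglion cell markers to 1392 to 1440.3 and 578 to 716 CPM. Markers of tissue next to the retina were low, with at most 18.3 CPM for the 5 pigment epithelium markers and 7.36 CPM for the 3 lens markers listed.

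Most guidance genes stood highest before birth or in the first postnatal week. The age with the highest mean was E14 for 21 of the 69 genes tested, E17 for 7, P1 for 17, P6 for 12, P15 for 4 and P60 for 8. Without P60 replicates 1, 2 and 6 the number with the highest mean at P60 was 13, and without replicates 3, 4 and 5 it was 6. For 30 of the 69 the libraries of that age did not overlap with those of the age with the next highest mean. These were 13 with a peak at E14, 1 at E17, 8 at P1, 5 at P6, 1 at P15 and 2 at P60. Neither peak ages nor overlaps were counted over all features, so the numbers do not set guidance genes apart from other genes. The F test of limma over the 7 ages called 69 of 69, where it called 83.0% of all 31760 features tested. Summed over all 71 symbols, the level was 4513 ± 42 CPM (SD, n = 3) at E14, 4534 ± 153 (n = 4) at P1, 3693 ± 117 (n = 3) at P6, 2501 ± 64.2 (n = 4) at P15 and 2239.9 ± 148 (n = 6) at P60. The sum at P60 was 2359 ± 35.3 CPM (n = 3) without replicates 1, 2 and 6 and 2120.4 ± 103 CPM (n = 3) without replicates 3, 4 and 5.

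**Figure D1:**
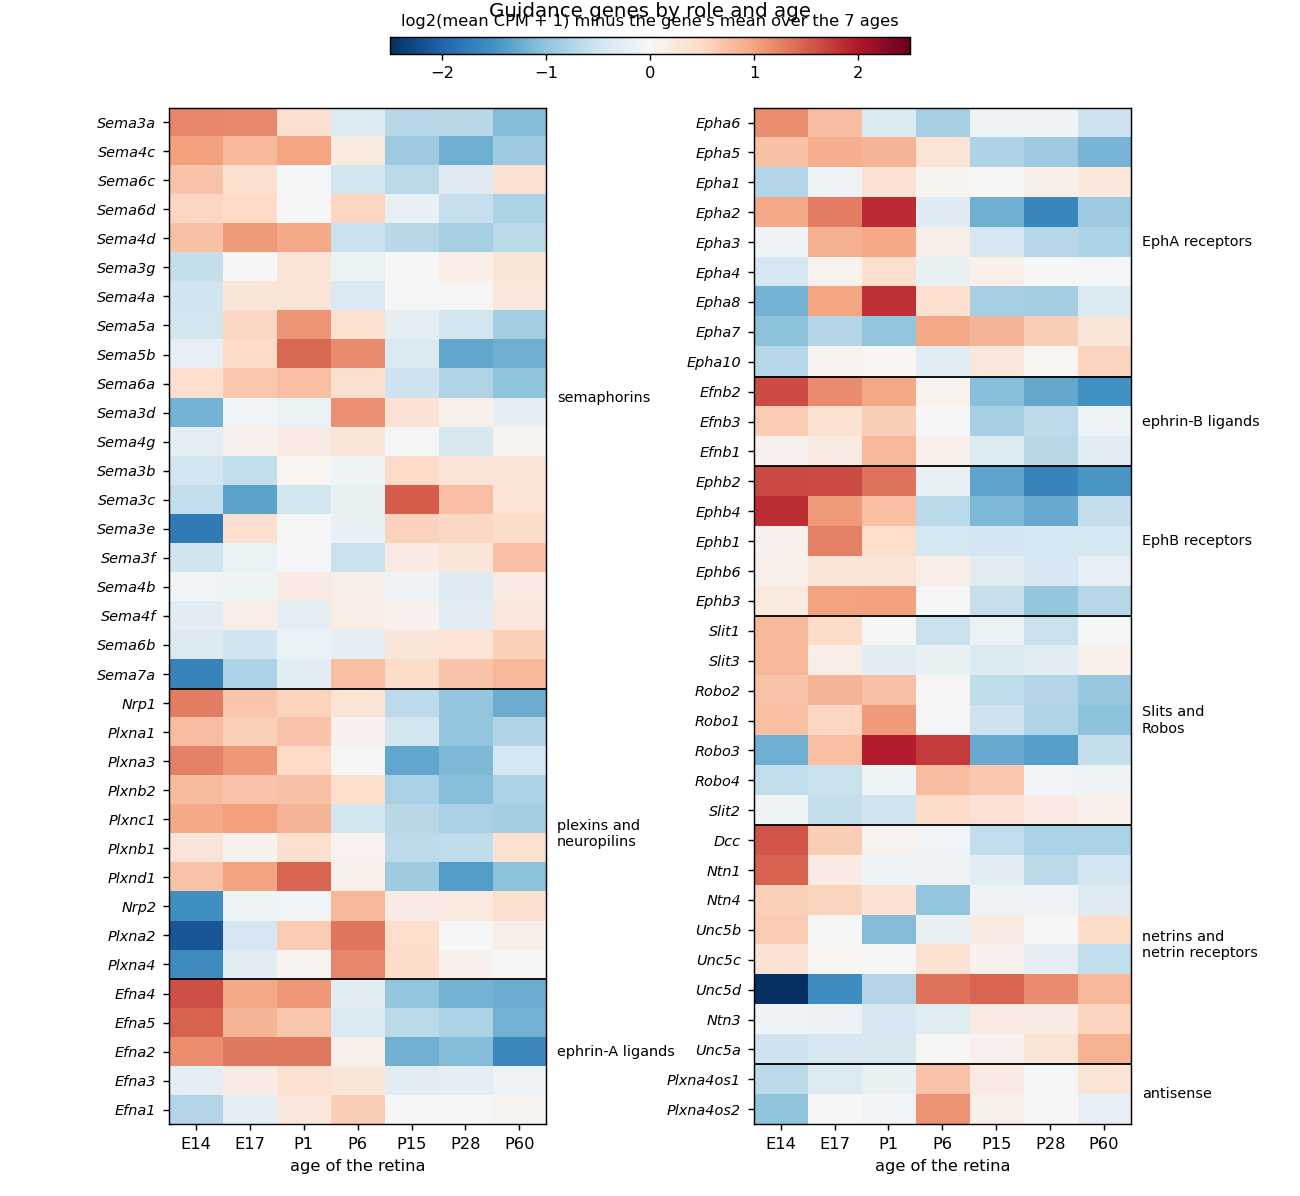
The 69 genes tested (vertical axis, grouped by role and ordered by the age of their highest mean) at the 7 ages (horizontal axis); colour is log2(mean CPM + 1) minus the gene's own mean over the ages, red for higher and blue for lower. Efna2, Efna4, Efna5, the ephrin-B ligands, the EphB receptors and Dcc are red at the embryonic ages, Efna1 and Efna3 are blue at E14, a block of P1 and P6 peaks holds Epha8, Robo3, Sema5b, Plxna2 and Plxna4, and Unc5d, Epha7 and Sema7a are red from P6 on.

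In mature retina (the mean of P15, P28 and P60) against embryonic retina (the mean of E14 and E17), more guidance genes were lower than higher. Counts of genes here take those with an adjusted p below 0.05 in limma that moved by 1 or more on the log2(CPM + 1) scale, which understates the change of low genes. By that measure 8 of 69 (11.6%) were higher and 29 (42%) were lower in mature retina, beside 14.9% and 16.1% of all features tested. The median log2 fold change was -0.62 for the guidance genes and -0.06 for all features. Lower genes were found in every ligand and receptor group: 6 of 20 semaphorins, 6 of 10 plexins and neuropilins, 3 of 5 ephrin-A ligands, 4 of 9 EphA receptors, 2 of 3 ephrin-B ligands, 4 of 5 EphB receptors, 2 of 7 Slits and Robos and 2 of 8 netrins and netrin receptors. Without P60 replicates 1, 2 and 6 the counts were 9 higher and 28 lower, and without replicates 3, 4 and 5 they were 8 higher and 30 lower. The 8 higher genes were 3 semaphorins, 3 plexins and neuropilins, 1 EphA receptor and 1 netrin receptor (Unc5d). Scaled by TMM and tested by edgeR on reads, 16 genes were higher and 27 lower, so that 37.2% of the calls were higher beside 21.6% by limma. The 8 genes higher by edgeR and not by limma on log2(CPM + 1) were low or moderate in level (Efna1, Plxna4os1, Robo4, Sema3b, Sema3d, Sema3g, Sema6b and Unc5a). TMM moved the median of all features by 0.10 on the log2 scale. The share of all features called by edgeR is not given here. Under edgeR the balance of the semaphorins turned to 7 higher and 5 lower and that of the netrins and their receptors to 2 and 2. For the semaphorins, limma gave 6 and 6 with 0.1 added in place of 1 (a pseudocount of 0.1) and 3 and 5 with median-of-ratios scaling. For the netrins and their receptors, both of these gave 1 and 2. The plexins, ephrins, EphA and EphB receptors and Robos kept more lower than higher genes under each of these settings.

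CPM values are shares of a library, and in whole tissue fewer cells of a type and less RNA per cell cannot be told apart. Several cell type markers moved over the same span. The 5 markers of dividing progenitors summed to 3638 to 3767 CPM at E14, 2799 to 3186 at P1, 68.5 to 94 at P6 and 1.19 to 2.56 at P15, and all 5 were lower in mature retina. Of the 7 ganglion cell markers 4 were lower and none was higher, with sums of 571 to 666 CPM at P1 and 849 to 1142 CPM at P15. All 5 rod markers were higher, with sums of 2137 to 2795 CPM at P6 and 15977 to 17149 CPM at P15. The part of these cell types in the levels of the guidance genes was not tested.

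**Figure D2:**
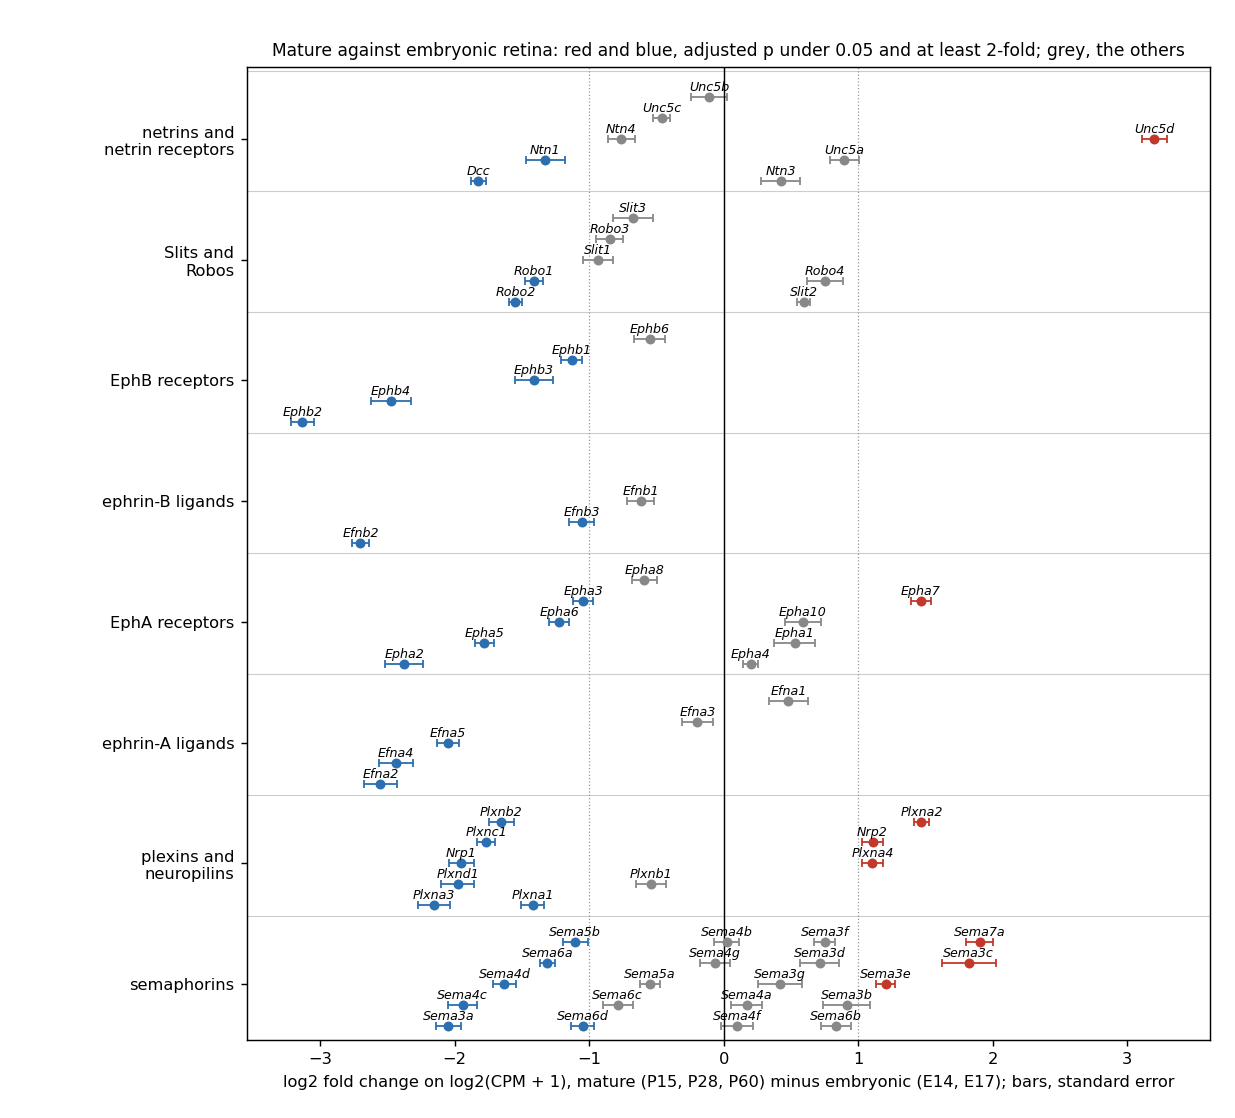
Log2 fold change on log2(CPM + 1) of mature against embryonic retina (horizontal axis; bars, standard error from limma) for the ligand and receptor genes tested, in rows by role group (vertical axis, with height inside a row only for legibility). Red and blue points passed an adjusted p of 0.05 and a 2-fold change: the 8 red ones reach 3.20 for Unc5d and the 29 blue ones reach -3.13 for Ephb2.

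Most of the 29 falls had their largest step after birth. For 14 of these 29 genes the largest drop between neighbouring ages came between P1 and P6, and for 11 between P6 and P15, with 2 between E14 and E17 and 2 between E17 and P1. Of the 8 rises, 4 had their largest step between E14 and E17, 3 between P1 and P6 and 1 between P6 and P15. The steps span different numbers of days, and the same tally over all features was not made. The comparison of means that chose these genes also counts a change from E14 to E17, or after P15, only in part. Step by step, limma called 9 guidance genes higher and 1 (Ntn1) lower from E14 to E17 (2.9% and 0.702% of all features), and 2 higher (Plxna2 and Robo3) and 2 lower (Epha6 and Unc5b) from E17 to P1 (1.23% and 0.614%). From P1 to P6 it called 6 higher and 13 lower (6.3% and 6.74%), and from P6 to P15 1 higher (Sema3c) and 12 lower (4.74% and 3.31%). From P15 to P28 none of the 69 was called by limma, beside 0.164% higher and 0.22% lower among all features; 23 had an unadjusted p under 0.05, 5 (Plxna1, Plxna2, Robo4, Sema5b and Unc5c, all lower at P28) had an adjusted p under 0.05 with a change below 2-fold, and edgeR called 0. From P28 to P60 limma called none either, beside 0.0756% and 0.378% of all features. Of the 69, 33 had an unadjusted p under 0.05, and 24 had an adjusted p under 0.05 with a change below 2-fold. By edgeR 4 were called (Epha2, Ephb4, Plxnb1 and Robo3, all higher at P60). For the counts by p alone and by edgeR, shares of all features are not given here.

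**Figure D3:**
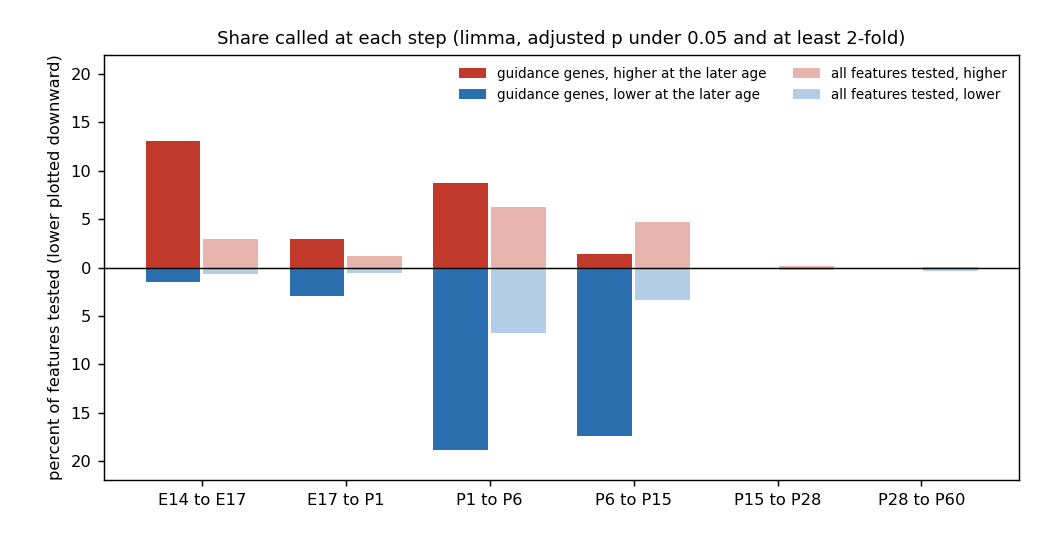
Share of the 69 guidance genes (dark bars) and of all 31760 features tested (pale bars) called at each step between neighbouring ages (horizontal axis), in percent (vertical axis, higher upward in red and lower downward in blue; limma, adjusted p under 0.05 and at least 2-fold). The guidance genes called lower were 18.8% from P1 to P6 and 17.4% from P6 to P15, and those called higher were 13% from E14 to E17.

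The start of each gene was read beside these results for the genes that moved furthest. Of the 71 symbols 59 were matched to promoter sequences from RefSeq (build GRCm38.p6). Each sequence holds 250 bases before the RefSeq start and 50 after it. The last 25 bases of 54 of these sequences, which lie after the start, were found in a transcript of the gene. The 250 bases before the RefSeq start are shown 5′ to 3′ on the gene's strand for the 3 largest falls and the 3 largest rises with an entry, because these 6 are among the genes that moved furthest between embryonic and mature retina by limma. The RefSeq start closest to the start of the gene in GENCODE M21 was taken. It is the same base for Efnb2, Efna2 and Sema7a, lies 24 bases before it for Ephb2. It lies 535 bases inside the gene for Sema3c and 1611 bases inside for Plxna2, so that the windows of Sema3c and Plxna2 lie within the annotated gene. Capitals mark matches on either strand to 4 short motifs: TAATTA (homeodomain core), GGATTA (Crx-like), CAGCTG (an E-box) and GGGCGG (an Sp core). Ephb2, Efnb2 and Efna2 fell; their windows lie at chr4:136836013-136836262, minus strand; chr8:8661243-8661492, minus strand; and chr10:80179232-80179481, plus strand. Sema7a, Sema3c and Plxna2 rose; their windows lie at chr9:57939862-57940111, plus strand; chr5:17574566-17574815, plus strand; and chr1:194619579-194619828, plus strand.
Ephb2: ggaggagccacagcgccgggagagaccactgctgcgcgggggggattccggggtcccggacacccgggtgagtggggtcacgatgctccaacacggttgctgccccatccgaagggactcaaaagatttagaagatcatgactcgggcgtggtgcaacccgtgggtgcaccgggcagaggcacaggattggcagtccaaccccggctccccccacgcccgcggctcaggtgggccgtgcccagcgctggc
Efnb2: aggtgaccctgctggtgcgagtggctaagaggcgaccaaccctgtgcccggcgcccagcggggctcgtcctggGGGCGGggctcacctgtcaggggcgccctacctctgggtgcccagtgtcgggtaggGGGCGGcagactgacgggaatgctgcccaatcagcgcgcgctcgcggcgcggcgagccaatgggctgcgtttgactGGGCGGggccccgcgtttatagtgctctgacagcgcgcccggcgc
Efna2: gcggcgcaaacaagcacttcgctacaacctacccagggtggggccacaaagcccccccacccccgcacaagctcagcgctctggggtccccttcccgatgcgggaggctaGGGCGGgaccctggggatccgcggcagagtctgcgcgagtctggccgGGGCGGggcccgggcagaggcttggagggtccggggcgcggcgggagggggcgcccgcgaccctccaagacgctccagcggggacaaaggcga
Sema7a: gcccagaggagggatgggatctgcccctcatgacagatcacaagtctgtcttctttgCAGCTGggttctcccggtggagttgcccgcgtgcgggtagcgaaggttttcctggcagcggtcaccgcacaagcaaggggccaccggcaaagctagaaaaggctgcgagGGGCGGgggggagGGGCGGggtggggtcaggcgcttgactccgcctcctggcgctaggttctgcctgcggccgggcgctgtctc
Sema3c: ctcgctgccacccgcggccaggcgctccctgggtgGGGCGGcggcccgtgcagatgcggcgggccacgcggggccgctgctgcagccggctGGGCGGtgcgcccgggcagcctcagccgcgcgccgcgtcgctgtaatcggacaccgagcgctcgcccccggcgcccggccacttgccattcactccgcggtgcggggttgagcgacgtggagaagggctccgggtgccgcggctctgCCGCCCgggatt
Plxna2: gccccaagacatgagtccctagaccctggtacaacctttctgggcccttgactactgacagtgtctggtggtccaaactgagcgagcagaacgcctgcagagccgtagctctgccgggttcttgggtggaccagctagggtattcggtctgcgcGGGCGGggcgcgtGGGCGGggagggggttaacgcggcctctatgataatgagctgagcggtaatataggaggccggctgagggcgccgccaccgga

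Over the 59 windows of guidance genes, GGGCGG was present in 72.9%, CAGCTG in 18.6%, TAATTA in 5.08% and GGATTA in 3.39%. In all 32851 promoter windows of the same length the shares were 32.7%, 13%, 4.84% and 6.25%. For each guidance gene 1 window was taken, while the full set keeps every entry. Some guidance gene windows lie far inside the annotated gene, as for Robo1 (354843 bases), Sema3a (271370) and Sema4d (37064). The median GC content was 64.8% in the guidance genes and 52.4% in all windows. A match is a description of letters in the window, and no match says only that these letters are not in it.

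Among the ephrin-A ligands, membrane-anchored cues that repel EphA-bearing axons, 3 of 5 were lower in mature retina by 2-fold or more, and Efna1 was higher by less. Efna5 (chr17:62604184-62881317 in GENCODE M21 on GRCm38, as for the positions of genes that follow), a ligand with a graded pattern in the retina and its targets, was the most abundant of the 5. Its libraries stood at 126, 137 and 132 CPM at E14, 83.4, 86.4 and 85.1 at E17 and 71.3, 73.5, 76.6 and 83.7 at P1. At P6 Efna5 had 37.2, 39.8 and 32.4 CPM, followed by 29.2, 31.9, 30.2 and 25.4 at P15 and 31.7, 27, 27.3 and 21.1 at P28, and the 6 libraries at P60 lay between 16.8 and 26.9 CPM with a median of 19.2 CPM. All 3 E14 libraries lay above every later one, and the highest library from P6 on had 39.8 CPM. In mature against embryonic retina Efna5 was lower (limma, log2 fold change -2.05, standard error 0.08, adjusted p = 1.10e-20), with the largest step between P1 and P6 (-1.05). Efna2, its close relative in retinotopic mapping, held 14.3 ± 0.86 CPM (n = 3) at E14 and 16 ± 1.97 CPM (n = 4) at P1 before it fell in 2 steps to 1.97 ± 0.397 CPM (n = 4) at P15 (P1 to P6, log2 fold change -1.20; P6 to P15, -1.32). Efna4 went from 7.05 ± 0.398 CPM (n = 3) at E14 to 1.2 ± 0.282 CPM (n = 3) at P6 and ranged from 0 to 0.687 CPM at P15 and from 0 to 0.331 CPM at P60. Efna1 and Efna3 were low throughout. Efna1 went from 0.211 CPM at E14 to its highest mean of 2.06 CPM at P6 (limma, mature against embryonic, log2 fold change 0.48, adjusted p = 0.00413; edgeR called it higher too). Efna3 had its highest mean of 3.68 CPM at P1 (-0.20, adjusted p = 0.117).

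The EphA receptors, which bind ephrin-A ligands, split into several time courses. Epha5 (chr5:84054761-84417382), graded across ganglion cells, was the most abundant in CPM, with 363, 360.3 and 370.5 CPM at E14, 422, 399 and 416 at E17 and 422, 318, 410.5 and 427 at P1. At P6 Epha5 had 243, 300.3 and 284 CPM, followed by 125, 124, 139 and 123 at P15 and 126, 109, 125 and 103 at P28, and the 6 libraries at P60 lay between 76.9 and 116 CPM with a median of 93.5 CPM. The P1 libraries overlapped with those of E14 and of E17, and all libraries from P15 on lay below all earlier ones. Epha5 was lower in mature than in embryonic retina (limma, log2 fold change -1.78, standard error 0.07, adjusted p = 1.15e-20). Its largest step was P6 to P15 (-1.10). Epha6, another graded receptor, behaved otherwise. It fell from 99 ± 11.4 CPM (n = 3) at E17 to 43.9 ± 3.26 CPM (n = 4) at P1 (log2 fold change -1.15, adjusted p = 1.25e-08 by limma), reached 31.9 ± 2.52 CPM (n = 3) at P6, and rose to 52.6 ± 4.57 CPM (n = 4) at P15 (0.71).

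Epha8 (chr4:136929419-136956816) peaked at P1. Its libraries stood at 13.1, 13.3 and 15.5 CPM at E14, 62.5, 70.9 and 64.2 at E17 and 115, 123, 126 and 112 at P1. At P6 Epha8 had 38.3, 48.6 and 46.5 CPM, followed by 20.3, 15.3, 19.1 and 17.7 at P15 and 17.7, 17, 18 and 18.5 at P28, and the 6 libraries at P60 lay between 17.7 and 32.5 CPM with a median of 26.1 CPM. No P1 library overlapped with any other age, and both the rise from E14 to E17 and the fall from P1 to P6 passed (limma, log2 fold changes 2.16 and -1.41, adjusted p = 1.94e-12 and 1.16e-09). A comparison of embryonic with mature means alone misses this peak, since its log2 fold change there was -0.59. Epha2, best known from epithelia, had a peak at P1 too, at 19.4 ± 1.77 CPM (n = 4), and fell to 3.5 ± 1.16 CPM (n = 3) at P6 (-2.21).

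Epha7 (chr4:28813131-28967499) was the 1 Eph receptor that was higher in mature retina by 2-fold or more. It stood at 22.2, 23.8 and 21.2 CPM at E14, 29.3, 26.3 and 27.4 at E17 and 22.8, 22.6, 23.7 and 23.4 at P1. At P6 Epha7 had 94.4, 94.8 and 87.4 CPM, followed by 86.1, 74, 93.6 and 88 at P15 and 76.3, 73.6, 71.8 and 67 at P28, and the 6 libraries at P60 lay between 45.2 and 70.4 CPM with a median of 54.2 CPM. The libraries at E14, E17 and P1 lay between 21.2 and 29.3 CPM, and the lowest later library had 45.2 CPM. The change came between P1 and P6 (limma, log2 fold change 1.95, standard error 0.11, adjusted p = 3.46e-15), while after P6 the level drifted down to 57.5 ± 10.6 CPM (n = 6). Epha3 was lower in mature retina (-1.04), with its highest mean of 77.9 CPM at P1. Epha1, Epha4 and Epha10 were higher too, by less than 2-fold, with mature against embryonic log2 fold changes of 0.53, 0.20 and 0.59 (adjusted p = 0.0024, 0.00223 and 2.83e-04 by limma).

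In class B, all 3 ligands and all 5 receptors were lower in mature than in embryonic retina at an adjusted p under 0.05. The change reached 2-fold in 2 ligands and 4 receptors, and the time courses differed. Efnb2 (chr8:8617434-8661242), which turns back EphB1-bearing axons at the chiasm and marks the dorsal retina, had the highest level of all guidance genes per kilobase at E14, 50.6 ± 2.02 CPM per kb of merged exons. Its libraries stood at 359, 332 and 350.2 CPM at E14, 261, 242 and 257 at E17 and 229.6, 197, 223 and 222 at P1. At P6 Efnb2 had 104, 126 and 128 CPM, followed by 50.5, 47.5, 58.4 and 53.9 at P15 and 46.8, 47.5, 44.8 and 40.9 at P28, and the 6 libraries at P60 lay between 32.5 and 44 CPM with a median of 37.7 CPM. The mean went down at each step to P15 with no overlap between E14 and any later age (limma, mature against embryonic, log2 fold change -2.70, standard error 0.06, adjusted p = 6.52e-27), and E17 and P1 also did not overlap. Efnb1 was lower in level and peaked at P1 at 21.4 ± 2.22 CPM (n = 4), and its mature against embryonic log2 fold change was -0.62. Efnb3 was lower in mature retina (-1.06), with 27.2 CPM at E14 and 9.12 CPM at P15.

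Ephb2 (chr4:136647539-136835988), a receptor of the ventral retina that also acts at the optic disc, showed the largest fall of all guidance genes by limma on log2(CPM + 1). By contrast, edgeR (-4.63) and a pseudocount of 0.1 (-4.47) put the low gene Efna4 first. Ephb2 stood at 389.8, 386 and 367 CPM at E14, 355, 370.3 and 406 at E17 and 303, 331, 300.2 and 315 at P1. At P6 Ephb2 had 105, 113 and 103 CPM, followed by 48.2, 47, 46 and 49.8 at P15 and 36.6, 35.2, 42.5 and 36.1 at P28, and the 6 libraries at P60 lay between 30.6 and 56 CPM with a median of 46.1 CPM. E14 and E17 overlapped, P1 lay just below them, and the highest P6 library had 113 CPM where the lowest P1 library had 300.2 CPM. In mature against embryonic retina the fall was 8.77-fold on the log2(CPM + 1) scale (limma, log2 fold change -3.13, standard error 0.09, adjusted p = 5.11e-25). Ephb1, the receptor that marks ganglion cells with uncrossed axons, had a short peak at E17. It stood at 39.7, 28.8 and 37.8 CPM at E14, 78.3, 75.2 and 84.6 at E17, 43.1, 44.9, 44.1 and 47.8 at P1 and 26.4, 21.8 and 23.2 at P6. Both the rise into E17 and the fall after it passed the test (limma, log2 fold changes 1.15 and -0.81, adjusted p = 9.02e-08 and 2.53e-05). Ephb3, a partner of Ephb2 in ventral retina, held 22.7 ± 3.18 CPM (n = 3) at E17 and 22.8 ± 4.4 CPM (n = 4) at P1 and then fell (-1.04 from P1 to P6). Ephb4, best known as a receptor for Efnb2 on veins, fell already before birth. It went from 22.3 ± 4.03 CPM (n = 3) at E14 to 12.5 ± 1.28 CPM (n = 3) at E17, and on to 3.04 ± 0.344 CPM (n = 3) at P6. The 5 endothelial markers summed to 3.0 to 4.84 CPM at E14, 4.24 to 5.73 at E17 and 20.4 to 25.4 at P6. Their part in the Ephb4 level was not tested. Ephb6, which lacks kinase activity, changed least of the 5 EphB receptors (-0.55).

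**Figure D4:**
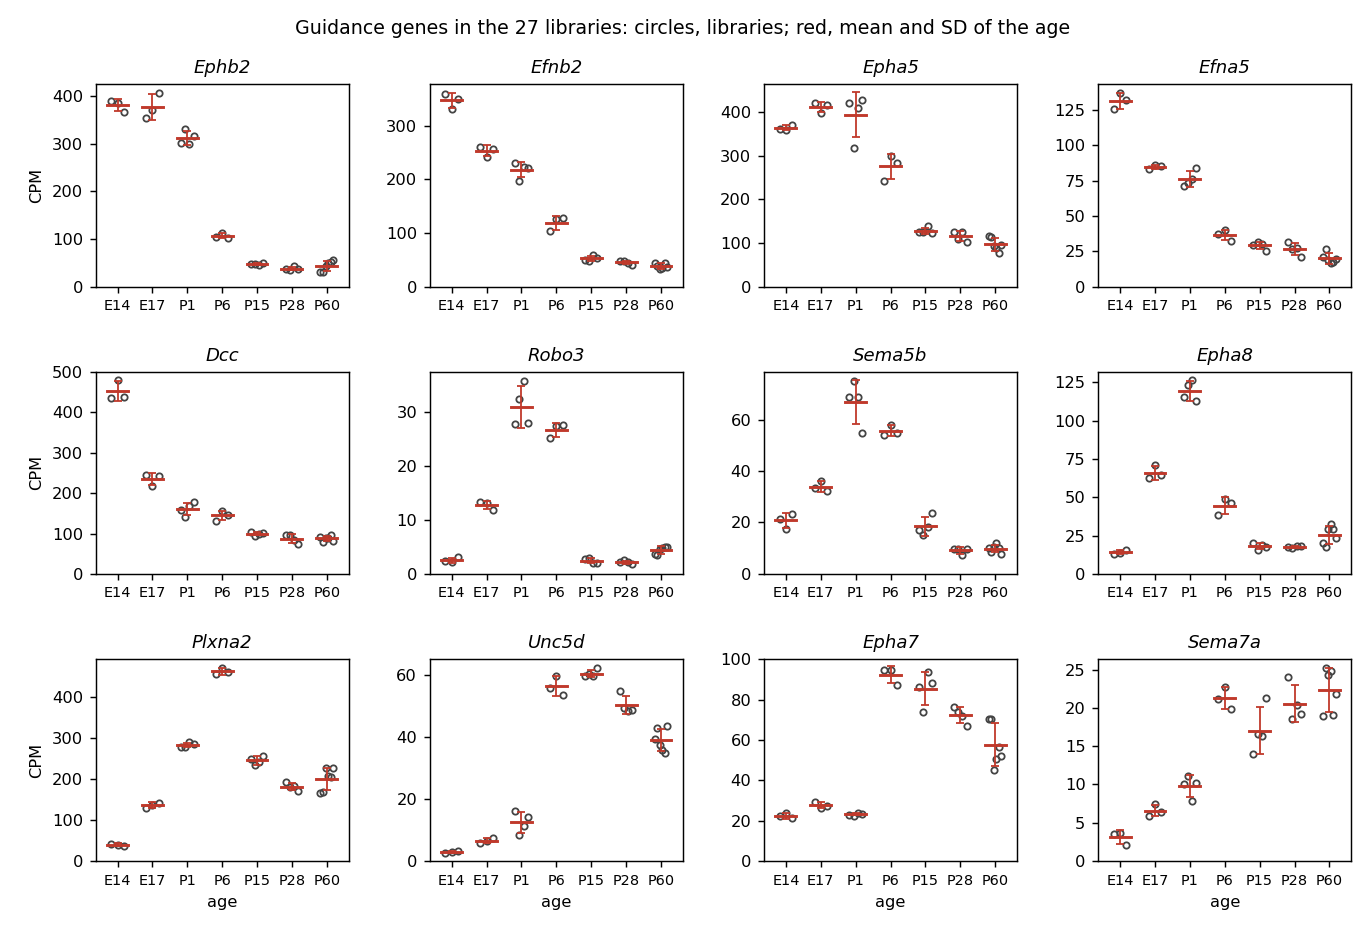
CPM (vertical axes, from 0) of 12 guidance genes at the 7 ages (horizontal axes); each circle is 1 library, and the red line and bar are the mean and SD of the age. Ephb2, Efnb2, Efna5, Epha5 and Dcc decline, Robo3, Sema5b and Epha8 peak at P1, Plxna2 peaks at P6, and Unc5d and Epha7 step up between P1 and P6.

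Of the netrins and their receptors, Dcc and Ntn1 fell and Unc5d rose by 2-fold or more between embryonic and mature retina. Dcc, the attractive netrin-1 receptor of ganglion cell axons, stood at 436, 481 and 439 CPM at E14, 244, 217 and 244 at E17 and 159, 142, 168 and 177 at P1. At P6 Dcc had 132, 156 and 146 CPM, followed by 103, 94.3, 98.8 and 101 at P15 and 96.1, 95.3, 83.9 and 74.7 at P28, and the 6 libraries at P60 lay between 79.99 and 96.4 CPM with a median of 89.1 CPM. The step from E14 to E17 was the largest (log2 fold change -0.94), the 3 E14 libraries lay above all others, and P1 and P6 overlapped. In mature against embryonic retina the change passed (limma, log2 fold change -1.83, standard error 0.06, adjusted p = 1.75e-23). Ntn1, the ligand found around the optic disc, was rare in whole retina and fell over the same step, with 6.5, 5.59 and 7.47 CPM at E14 and 1.74, 1.76 and 2.9 CPM at E17 (limma, log2 fold change -1.28, standard error 0.24, adjusted p = 2.83e-04). Ntn4, a netrin of basement membranes, dipped at P6. It stood at 16.4 ± 1.17 CPM (n = 4) at P1, 5.84 ± 1.41 CPM (n = 3) at P6 and 11.8 ± 2.41 CPM (n = 4) at P15 (log2 fold changes -1.36 and 0.90). Ntn3 remained between 3.68 and 8.19 CPM in its means, but it shares exonic sequence with genes on both strands and its value is uncertain.

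Unc5d (chr8:28646717-29219636), which binds netrin and the FLRT adhesion proteins, rose most of all guidance genes by limma. In edgeR the order was different, with the low gene Robo4 (3.66) ahead of Unc5d (3.58). The libraries of Unc5d stood at 2.5, 2.95 and 3.26 CPM at E14, 5.73, 6.62 and 7.56 at E17 and 16.2, 8.32, 11.2 and 14.1 at P1. At P6 Unc5d had 55.7, 59.7 and 53.4 CPM, followed by 59.6, 60.3, 59.5 and 62.1 at P15 and 54.6, 49.3, 48.3 and 48.5 at P28, and the 6 libraries at P60 lay between 34.9 and 43.5 CPM with a median of 38.4 CPM. Every library from P6 on was above every earlier one, and the step from P1 to P6 was the largest rise of any guidance gene between those ages (limma, log2 fold change 2.13, standard error 0.14, adjusted p = 5.52e-14). Over the whole span the mature against embryonic fold was 9.19 on the log2(CPM + 1) scale (adjusted p = 9.59e-25 by limma). Unc5b and Unc5c did not follow. Unc5c, the repulsive netrin receptor, held 113 ± 1.86 CPM (n = 3) at E14, 114 ± 6.79 CPM (n = 3) at P6 and 56.4 ± 7.57 CPM (n = 6) at P60 (mature against embryonic, -0.46). Unc5b, also found in vessels, dipped to 1.83 ± 0.531 CPM (n = 4) at P1 between 8.27 CPM at E14 and 5.93 CPM at P15. The mature against embryonic log2 fold change of Unc5b was -0.11 (adjusted p = 0.456 by limma), and it came to 0.015 by edgeR without E14 replicate 1. Unc5a had 8.81 CPM at E14 and 24.8 CPM at P60 (29.3 without P60 replicates 1, 2 and 6 and 20.2 without replicates 3, 4 and 5). It was higher in mature than in embryonic retina by less than 2-fold in limma (log2 fold change 0.90, adjusted p = 7.15e-09) and by 1.08 in edgeR. Its exons overlap with Hk3 on the other strand.

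Slits, the secreted repellents, and their Robo receptors contributed 2 falls of 2-fold or more, Robo1 and Robo2. Robo2, the main Slit receptor of ganglion cells, had the highest CPM of all guidance genes at E14, E17 and P1, with 508, 549 and 554 CPM at E14, 608, 579 and 591 at E17, 562, 458, 536 and 623 at P1, 329, 338 and 332 at P6, 207, 213, 227 and 201 at P15 and 206, 197, 188 and 196 at P28, and between 157 and 186 CPM with a median of 170.5 CPM at P60. The P1 libraries spanned those of E14 and E17, and P6 lay below all 3 ages without overlap (limma, mature against embryonic, log2 fold change -1.55, standard error 0.05, adjusted p = 1.31e-23). Robo1 was highest at P1, at 99.98 ± 4.64 CPM (n = 4), and fell to 45.6 ± 5.21 CPM (n = 3) at P6 (-1.12). The ligand Slit2 went the other way after birth, from 159, 146, 164 and 172 CPM at P1 to 341, 310.2 and 299 CPM at P6 (limma, log2 fold change 0.98, standard error 0.08, adjusted p = 2.94e-12), and stayed at 247 ± 21.7 CPM (n = 6) at P60. Slit1 fell from 41.9 ± 2.86 CPM (n = 3) at E14 to 15.4 ± 1.19 CPM (n = 3) at P6, and Slit3 never exceeded a mean of 3.56 CPM.

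Robo3 (chr9:37415669-37433246), known for its role in midline crossing of commissural axons and for not binding Slits strongly in mammals, was high for a short time. It stood at 2.3, 2.22 and 3.05 CPM at E14, 13.3, 13.2 and 11.9 at E17 and 27.7, 32.5, 35.8 and 27.9 at P1. At P6 Robo3 had 25.3, 27.5 and 27.6 CPM, followed by 2.68, 2.9, 2.07 and 2.06 at P15 and 2.13, 2.53, 2.16 and 1.76 at P28, and the 6 libraries at P60 lay between 3.52 and 5.02 CPM with a median of 4.69 CPM. The P1 and P6 libraries, at 25.3 to 35.8 CPM, lay above all others, and E17 stood between. It rose from E14 to E17 and again to P1, and the drop from P6 to P15 was the largest of any guidance gene at any step (limma, log2 fold change -3.03, standard error 0.16, adjusted p = 6.92e-16). Robo4, a Robo of endothelial cells, had at most 1 read in each E14 library and its highest mean of 1.69 ± 0.818 CPM (n = 3) at P6. The endothelial markers had sums of 5.2 to 8.25 CPM at P1, 20.4 to 25.4 at P6, 24.5 to 30.2 at P15 and 8.99 to 11.3 at P28. Of these 5 markers 4 were tested and 3 were called higher from P1 to P6; Emcn was at 0 at E14 and P1. Their part in the Robo4 level was not tested.

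Among the receptors of semaphorins, the A-type plexins separated into rising and falling genes. Plxna2 (chr1:194618218-194816869), a receptor of Sema6a, climbed step by step to P6. It stood at 42.9, 40.4 and 37.3 CPM at E14, 129, 137 and 143 at E17 and 279, 277, 290.3 and 284 at P1. At P6 Plxna2 had 455, 471 and 461 CPM, followed by 249, 233, 243 and 257 at P15 and 192, 180.3, 183 and 169.8 at P28, and the 6 libraries at P60 lay between 167 and 226 CPM with a median of 206 CPM. No 2 of the ages E14, E17, P1 and P6 overlapped, and the P6 libraries, at 455 to 471 CPM, were the highest (limma, E14 to E17, log2 fold change 1.74, standard error 0.09, adjusted p = 2.78e-15). After P6 Plxna2 fell to 245 ± 10.1 CPM (n = 4) at P15 and 181 ± 9.24 CPM (n = 4) at P28, and its mature against embryonic log2 fold change was 1.47. Plxna4, the other Sema6a receptor, had the same order of ages up to P6, at 9.6, 9.28 and 10.2 CPM at E14, 23.8, 24.7 and 26.9 at E17, 32, 31.5, 30.1 and 38 at P1 and 80.1, 68.8 and 71.4 at P6, and then fell to 43 ± 5.33 CPM (n = 4) at P15 (mature against embryonic, 1.10). The antisense transcripts Plxna4os1 and Plxna4os2 also had their highest means at P6, at 2.52 ± 0.155 CPM (n = 3) and 8.09 ± 0.822 CPM (n = 3); the sources used here do not state whether counting used the strand, and Plxna4 overlaps another antisense transcript, Plxna4os3.

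Plxna1 and Plxna3, receptors of Sema5a and Sema5b, both fell. Plxna3 went from 57 ± 3.92 CPM (n = 3) at E14 to 23.7 ± 0.0999 CPM (n = 3) at P6 and 8.83 ± 1.28 CPM (n = 4) at P15 (limma, mature against embryonic, log2 fold change -2.16, standard error 0.12, adjusted p = 8.48e-17). Plxna1 went from 145 ± 7.48 CPM (n = 3) to 61.7 ± 5.14 CPM (n = 4) at P15 (-1.42). Plxnd1, the Sema3e receptor, had 39 ± 4.93 CPM (n = 4) at P1 and 14.9 ± 2.12 CPM (n = 3) at P6 (-1.33). The endothelial markers summed to 5.2 to 8.25 CPM at P1 and 20.4 to 25.4 CPM at P6. Their part in the Plxnd1 level was not tested. Plxnb2 (-1.65) and Plxnc1 (-1.77), receptors of class 4 semaphorins and of Sema7a, were lower in mature retina too. The neuropilins, co-receptors of class 3 semaphorins, moved apart. Nrp1 fell from 92.9 ± 2.21 CPM (n = 3) at E14 to 15.5 ± 3.18 CPM (n = 6) at P60 (limma, mature against embryonic, log2 fold change -1.95, standard error 0.09, adjusted p = 1.17e-18). Nrp2 rose from 9.1 ± 0.349 CPM (n = 3) at E14 to 51.1 ± 4.78 CPM (n = 3) at P6 (mature against embryonic, 1.11).

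The secreted class 3 semaphorins differed likewise. Sema3a, the classic repellent acting through Nrp1, stood at 77.5, 89.8 and 95.8 CPM at E14 and 93.6, 84.4 and 82.4 at E17, then at 50.2, 46, 51.8 and 48.3 at P1, 32.1, 27 and 28.7 at P6 and 17.1 ± 3.79 CPM (n = 6) at P60. E14 and E17 overlapped, and P1 and P6 lay below them in turn (limma, mature against embryonic, log2 fold change -2.05, standard error 0.09, adjusted p = 5.44e-19). Sema3e, which binds Plxnd1 without a neuropilin, rose 4.55-fold on the log2(CPM + 1) scale between E14 and E17, from 7.5, 7.49 and 8.74 CPM to 38, 39.3 and 41.1 CPM (limma, log2 fold change 2.19, standard error 0.12, adjusted p = 7.24e-15). This was the largest rise of any guidance gene at any step by limma on the deposited CPM with 1 added. With median-of-ratios scaling Unc5d from P1 to P6 (2.15) came before Sema3e (2.13). With a pseudocount of 0.1 Robo3 from E14 to E17 (2.312) came before Sema3e (2.308). By edgeR Robo3 rose more over that step, by 2.32 beside 2.29 for Sema3e, and the low gene Robo4 rose most at any step (2.57, E17 to P1). Sema3e was at 25.8 ± 1.9 CPM (n = 3) at P6 and 44.6 ± 2.0 CPM (n = 4) at P15. Sema3c peaked at P15 at a low level: it stood at 3.25, 1.62 and 2.21 CPM at P6, 8.7, 11.3, 11.4 and 7.97 at P15 and 7.33, 5.62, 5.28 and 3.39 at P28 (limma, P6 to P15, log2 fold change 1.71, standard error 0.31, adjusted p = 6.81e-05). Sema3d had its highest mean at P6, 8.68 ± 1.16 CPM (n = 3), after 2.9 ± 0.831 CPM (n = 4) at P1 (1.33). Sema3f, a ligand of Nrp2, went from 29.4 ± 1.17 CPM (n = 3) at P6 to 74.9 ± 14.1 CPM (n = 6) at P60 (84.4 without P60 replicates 1, 2 and 6 and 65.4 without replicates 3, 4 and 5). Sema3b and Sema3g stayed at or below means of 4.1 and 1.29 CPM.

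Membrane semaphorins of class 5, which hold neurites of the inner plexiform layer in place, peaked at P1. Sema5b stood at 21.5, 17.5 and 23.3 CPM at E14, 33.3, 36.2 and 32.3 at E17 and 68.8, 75, 68.7 and 55 at P1. At P6 Sema5b had 54.1, 58.1 and 54.7 CPM, followed by 17.1, 15, 18.3 and 23.5 at P15 and 9.73, 9.83, 7.31 and 9.68 at P28, and the 6 libraries at P60 lay between 7.84 and 11.9 CPM with a median of 10.1 CPM. The P1 and P6 libraries lay above all others, with an overlap between these 2 ages at 55 to 58.1 CPM. The fall from P6 to P15 passed (limma, log2 fold change -1.56, standard error 0.14, adjusted p = 3.74e-10), and Sema5b fell again from P15 to P28 (log2 fold change -0.93, adjusted p = 4.18e-05). Sema5a went from 54.9 ± 5.43 CPM (n = 3) at E14 to 165 ± 20.01 CPM (n = 4) at P1 and 41.6 ± 6.09 CPM (n = 6) at P60. Sema6a, the ligand of Plxna2 and Plxna4 in the layering of dendrites, remained between 200.4 and 254 CPM in its means from E14 to P6 and was 106 ± 6.34 CPM (n = 4) at P15 (limma, P6 to P15, log2 fold change -0.92, standard error 0.09, adjusted p = 5.77e-10). Per kilobase of merged exons, Plxna2 and Sema6a were the highest of all guidance genes at P6, with 26.9 ± 0.483 CPM per kb for Plxna2 and 22.8 ± 1.69 for Sema6a (SD, n = 3). With the longest transcript in place of merged exons Plxna2 remained first (41.9) and Sema6a (29.2) came after Robo2 (38.8), Epha5 (37.6) and Slit2 (31.8).

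Sema7a (chr9:57940112-57962865), a lipid-anchored semaphorin that binds Plxnc1 and integrins, rose from E14 to P6, and Plxnc1 fell from P1 to P6 (log2 fold change -1.31). Sema7a stood at 3.6, 3.69 and 2.11 CPM at E14, 5.93, 7.41 and 6.42 at E17 and 10.1, 11.1, 7.8 and 10.2 at P1. At P6 Sema7a had 21.2, 22.7 and 19.9 CPM, followed by 13.9, 16.6, 16.3 and 21.3 at P15 and 24, 18.5, 20.4 and 19.2 at P28, and the 6 libraries at P60 lay between 18.9 and 25.2 CPM with a median of 23.1 CPM. Each age up to P6 lay above the one before with no overlap (limma, mature against embryonic, log2 fold change 1.90, standard error 0.10, adjusted p = 3.74e-17), and from P6 to P60 the libraries of the ages overlapped. Plxnc1 held 76.5 CPM at E14, 80.7 ± 6.94 CPM (n = 3) at E17 and 28.5 ± 2.13 CPM (n = 3) at P6. Sema4d, a Plxnb1 ligand, fell between P1 and P6 from 70.05 ± 3.75 CPM (n = 4) to 24 ± 1.13 CPM (n = 3) (-1.50), and Sema4c (-1.94) and Sema6d (-1.05) were also lower in mature retina. Sema4a, Sema4b, Sema4f, Sema4g, Sema6b and Sema6c changed by less than 2-fold between embryonic and mature retina, with log2 fold changes from -0.79 (Sema6c) to 0.83 (Sema6b).

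Measured per kilobase of merged exons, the order of the guidance genes turned over with age. At E14 the leading genes were Efnb2 (50.6 ± 2.02 CPM per kb), Dcc (34.3 ± 1.9), Efna5 (32.7 ± 1.4), Robo2 (31.6 ± 1.47) and Ephb2 (30.2 ± 0.964; SD, n = 3 in each). From Dcc to Ephb2 each differed from its neighbour by less than the larger of their SDs. At P60 they were Plxnb1 (15.7 ± 5.03), Sema3f (14.4 ± 2.7), Plxna2 (11.7 ± 1.54), Robo2 (10.01 ± 0.602) and Slit2 (9.71 ± 0.855; SD, n = 6 in each). Plxnb1 and Sema3f differed by less than the SD of Plxnb1, and so did Robo2 and Slit2 against the SD of Slit2. Without replicates 1, 2 and 6 Plxnb1 led with 19.6 ± 1.68 CPM per kb and Sema3f had 16.2 ± 2.07. Without replicates 3, 4 and 5 Sema3f led with 12.6 ± 1.99 and Plxnb1 had 11.8 ± 3.84 (SD, n = 3 in each). With the longest transcript in place of merged exons, Slit2 had the highest value at P60 (24.8 CPM per kb) and Efnb2 that at E14 (72.4), followed by Robo2 (62.5).

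Plxnb1 (chr9:109095389-109119917), a receptor of Sema4d named here after its values were seen, made the largest change between P28 and P60 by limma on log2(CPM + 1). By edgeR there were larger changes for Epha2 (1.36) and Robo3 (1.11) than for Plxnb1 (1.09). With a pseudocount of 0.1 in limma, Epha2 (1.12) and Robo3 (1.01) also came before Plxnb1 (0.946). Plxnb1 stood at 70.3, 72.5, 76.9 and 77.8 CPM in the P28 libraries and at 95.9, 88, 206, 174, 185 and 155 CPM in P60 replicates 1 to 6. Replicates 1 and 2 lay between the P28 libraries and the other 4. The rise had an adjusted p under 0.05 in limma (log2 fold change 0.94, standard error 0.15, adjusted p = 5.61e-04), and its log2 fold change was 1.32 without replicates 1, 2 and 6 and 0.55 without replicates 3, 4 and 5 (adjusted p = 0.00847). Its exons overlap with Gm7628 on the other strand. Over all 69 genes, 13 had a higher and 11 a lower level at P60 than at P28 at an adjusted p under 0.05 by limma; without replicates 1, 2 and 6 these were 29 and 17, and without replicates 3, 4 and 5 they were 2 (Plxnb1 and Robo3) and 0. The coefficient of variation had a median of 12.9% at P28 and 23.0% at P60, and it was larger at P60 for 64 of the 71 symbols. The p-values pool the spread over all ages, so those at P60 do not carry this wider spread in full. For these counts at P60, shares of all features are not given here. Over all features tested, libraries had mean correlations to others of their age of 0.958 to 0.973 at P60 and 0.985 to 0.986 at P28.

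**Figure D5:**
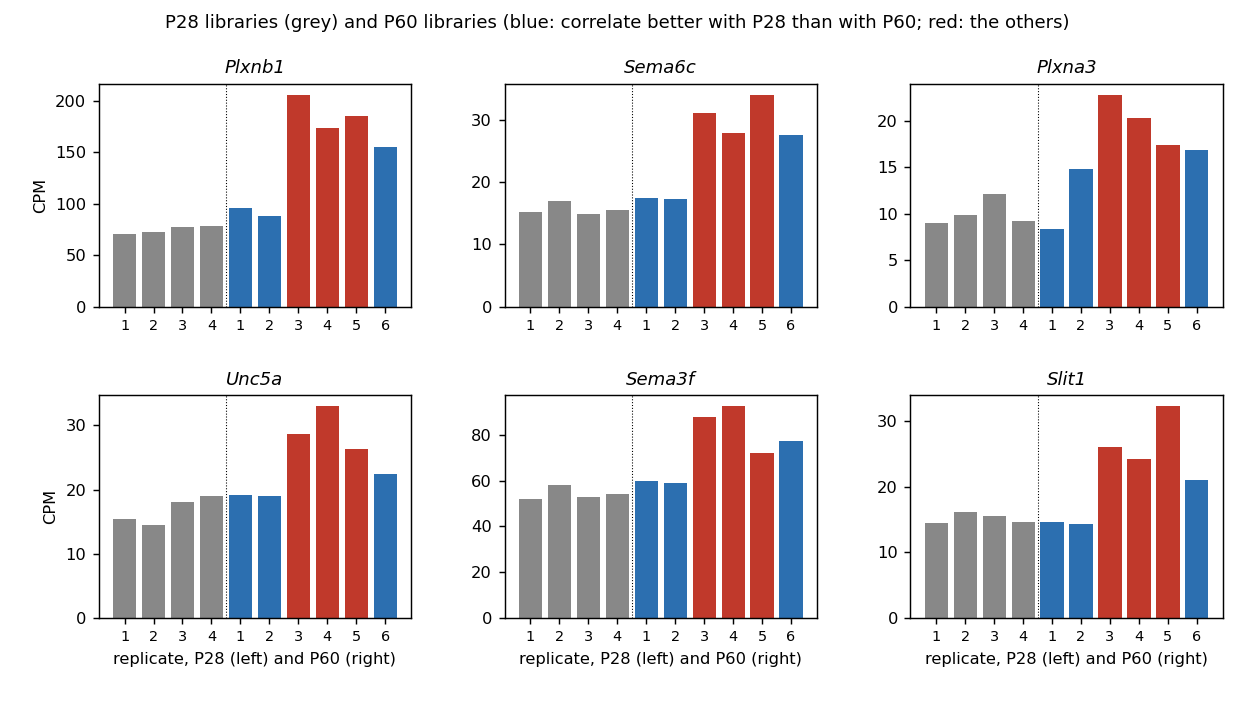
CPM (vertical axes, from 0) of 6 guidance genes with an adjusted p under 0.05 between P28 and P60, by library (horizontal axes, replicate number; grey, P28; blue, P60 libraries that correlate better with P28 than with P60; red, the other P60 libraries). For Plxnb1, replicates 1 and 2 at P60 stand at 95.9 and 88 CPM and replicates 3 to 6 at 155 to 206 CPM.

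Other genes of guidance pathways were counted from lists. Of 24 co-receptors and alternative ligands, all tested, 4 were higher and 5 lower in mature retina, with a median log2 fold change of -0.37. The higher ones were Dscaml1 (3.89), an adhesion protein of retinal layering that went from 18.4 CPM at P1 to 143 CPM at P6, Ntng1 (2.09) and Ntng2 (1.96), netrin-like proteins that bind synaptic adhesion molecules, and Alcam (1.29), an adhesion protein of axon bundles. The lower ones were Draxin (-5.25), a secreted repellent that binds netrin and Dcc and went from 99.9 CPM at E14 to 1.56 CPM at P15, Cntn2 (-3.58), an adhesion protein of young axons, Met (-1.66), a growth factor receptor, L1cam (-1.38), which bundles axons, and Rgma (-1.29), a repulsive ligand of neogenin. Of 32 cytoplasmic effectors, 3 were higher and 15 lower, with a median of -0.93. Gap43 (-3.88), a growth cone protein, Mical1 (-3.36), which acts downstream of plexins, Dpysl5 (-2.52), a collapsin response mediator, and Nck2 (-2.24), an adaptor, fell most, and Mical2 (1.99), Farp2 (1.65) and Rnd1 (1.05), which bind plexins or actin, were the 3 that rose by 2-fold or more. Against these counts, 14.9% of all features tested were higher and 16.1% lower. Both lists were written with earlier results of these data known, so the counts do not test whether such genes differ from all features.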

How the data were processed

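Total RNA of dissected retinas was built into libraries with the SMARTer total RNA kit by the authors, sequenced as single-end reads of 50 bases and aligned to GRCm38 (mm10) with STAR; the annotation and the strand setting are not given in the sources used here. The authors deposited CPM values, that is, reads per feature with each library scaled to 1000000. All values came out as whole reads (100% within a tolerance of 0.05 reads), except that the step of E14 replicate 1 could not be judged automatically. The members, lists, named genes and alternatives were chosen with earlier results of these data known. Where a symbol appeared more than once (Efna5), the row of largest mean CPM was taken. The 31760 features that reached 1 CPM in 3 or more libraries were transformed to log2(CPM + 1) and fitted over all 27 libraries with age as factor in limma 3.58.1 (R 4.3.3, mean-variance trend, two-sided tests, Benjamini-Hochberg adjustment over all features). The study's methods state no test for the RNA-seq values. A single gene is said to rise or fall at an adjusted p under 0.05, and a count also requires a 2-fold change. Recovered reads were tested with the quasi-likelihood test of edgeR 4.0.16 as an alternative. Both tests were checked on simulated counts. Levels per kilobase used exon lengths of GENCODE M21, in which all 71 symbols were found; exons of 15 overlap a gene on the other strand and those of 4 a gene on the same strand, and their values may hold reads of both. Genes with full statistics were those with a known role in retinal wiring, the highest, largest rise and largest fall of each role group, and up to 3 of each direction at each step; the other members were added for completeness. Grouping and replicate numbers follow the labels. Figures were drawn with Python 3.11.15, pandas 2.3.3 and matplotlib 3.10.9.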

Additional observations from a re-analysis of the deposited data

Results flagged for a closer look

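In 156 groups of 4 to 6 libraries (39 named genes at P1, P15, P28 and P60), 14 held a library whose gap to the nearest other exceeded Dixon's 95% critical value, where chance flags about 1 in 20. Of the 14, 3 were in P1 replicate 2, with 318 CPM for Epha5 (the other 3 libraries at 410.5 to 427 CPM), 29.4 CPM for Ephb3 and 164 CPM for Plxna1. P1 replicate 4 had 92.0 CPM for Unc5c. At P15, replicate 3 had 305 CPM for Slit2 and 4.38 CPM for Unc5b, and replicate 4 had 27.4 CPM for Ephb1 and 56.1 CPM for Sema5a. At P28, replicate 3 had 26.0 CPM for Robo1 and 7.31 CPM for Sema5b, replicate 4 had 64.6 CPM for Unc5c and replicate 1 had 54.6 CPM for Unc5d. At P60, replicate 3 had 13.9 CPM for Efnb1 and replicate 4 had 20.2 CPM for Robo1. With each of these libraries left out in turn, the 77 log2 fold changes of named genes kept their direction. Each also kept its side of an adjusted p of 0.05, with the minimum fold change left aside.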

How the results depend on the processing

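The counts of genes called and 77 values of named genes were recomputed under other choices. Of the recomputed values of named genes, 2911 kept their direction and their side of an adjusted p of 0.05. The 1 reversed value was Unc5b, mature against embryonic, at 0.015 by edgeR without E14 replicate 1 (main value -0.11, not called in either). The minimum fold change of the counts was not part of this check. From E17 to P1 the 4 genes called were all named genes, and leaving out 1 library gave as few as 3 calls. Named genes were partly chosen for large changes, and many settings left out a library of an age outside the comparison. The large share of values that stayed is therefore weak evidence of stability. Without a minimum fold change, 63 genes were called between mature and embryonic retina (23 higher, 40 lower), and 27, 19, 46, 44, 5 and 24 at the 6 steps in order of age. Shares of all features without that minimum are not given here. From P28 to P60, where limma called 0, a pseudocount of 0.1 gave 2 (Epha2 and Robo3), median-of-ratios scaling gave 1 (Plxnb1), edgeR gave 4 with and without E14 replicate 1, and leaving out P60 replicates 1, 2 and 6, chosen after seeing the data, gave 1 (Plxnb1). The cause was not tested. Leaving out 1 library at a time, the ranges were 37 to 38 for mature against embryonic, 10 to 11, 3 to 5, 18 to 21, 11 to 14, 0 to 1 and 0 to 1 for the steps, and 68 to 69 for the F test; the call from P15 to P28 came without P15 replicate 2 (Sema5b) and those from P28 to P60 without P60 replicate 1 or 2 (Plxnb1). With the replicate number as a block, the counts were 37 for mature against embryonic, 10, 4, 18, 13, 0 and 0 for the steps and 69 for the F test; libraries of the same number did not deviate together (correlations of -0.13 to 0.17 in 69 pairs, 3 of them over 0.1, and 7 of 27 libraries correlated best with their own number), so the numbers do not pair the samples. Between mature and embryonic retina, limma with a pseudocount of 0.1 called 14 higher and 29 lower and median-of-ratios scaling 8 and 26. With lengths of the longest transcript, levels per kilobase moved most for Nrp1 (2.68-fold, at E14 from 9.5 to 25.5 CPM per kb) and Slit2 (2.55-fold, at P60 from 9.71 to 24.8), and Robo2 at E14 went from 31.6 to 62.5. Depth limits the low genes: Robo4, Efna1, Sema3g, Slit3 and Ntn1 rest on few reads. Leaving out a library leaves at least 2 in each group.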
